A study of Mus musculus with 12 samples.

Results

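Mouse pancreatic ductal adenocarcinoma (PDAC) tumours treated with an antibody against the interleukin-1 receptor IL-1R1 were compared with untreated tumours across all genes. The comparison used 6 of the series' 12 bulk RNA-sequencing libraries, chosen by their treatment labels: 3 from anti-IL-1R1 tumours, numbered 1 to 3, and 3 from untreated tumours, also numbered 1 to 3. The other 6 libraries came from tumours given an agonistic CD40 antibody, with or without anti-IL-1R1, and enter only where the effects of anti-IL-1R1 in both settings are compared. All tumours grew under the skin, outside the pancreas, and per the labels the antibodies were given into the peritoneum 2 times a week. The strain, age and sex of the mice, the PDAC cell line, the antibody clone and dose, and whether untreated mice got a control antibody are not stated in the labels. The labels do not say whether each library is a separate animal, so p-values describe the spread between these libraries.

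IL-1R1 is the signalling receptor of the IL-1 cytokines and, with the co-receptor IL-1RAP and the adaptor MyD88, activates the transcription factor NF-kB. In pancreatic tumours IL-1 is known for inducing inflammatory fibroblasts and cytokines that attract myeloid cells. Type I interferons and interferon gamma act through other receptors. Many of their targets carry interferon-stimulated response elements or gamma-activated sites in their promoters, and include antiviral proteins, chemokines and the machinery of antigen presentation.

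Levels are given as read counts scaled to a common library size (CPM) by the TMM method, and differences as log2 fold changes of anti-IL-1R1 over untreated, with standard errors (SE). The libraries held 27.8 to 42.6 M reads in genes with anti-IL-1R1 and 35.4 to 53.3 M in untreated tumours. Of 29098 listed genes, 17706 had enough reads for the test. Epithelial tumour markers were present in every library, with Krt19 at 834, 793 and 891 CPM with anti-IL-1R1 and 940.5, 1064 and 806 CPM in untreated tumours, and did not separate the groups. The 3 anti-IL-1R1 libraries varied more among themselves than the untreated ones: the median SD of log2 levels was 0.283 with anti-IL-1R1 and 0.158 in untreated tumours over 14214 genes. Library anti-IL-1R1 2 stood apart, at 54.5 on the first principal component against -22.9 to -2.60 for the other 5 libraries, and it held the highest level of the 6 for 29.3% of genes and the lowest for 28.8%. The share of reads in the ribosomal RNA gene Rn18s-rs5 was 1.43 to 1.95% with anti-IL-1R1 and 1.67 to 4.10% in untreated tumours, with the highest share in untreated 3.

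Few genes were called between anti-IL-1R1 and untreated tumours, only in some fits, and most of these were lower with anti-IL-1R1. All tested genes together did not lean lower, with 48.8% of log2 fold changes below 0. Of the 23 genes called lower with libraries compared by number, 12 were in the type I interferon or interferon gamma list. These lists hold 34 and 30 of the 17706 tested genes and were chosen with earlier results of these data known. No gene passed edgeR's quasi-likelihood test at an adjusted p under 0.05 among 17706 genes (0%). The lowest adjusted p was 0.272, for Irf7 and Ptgis, and 826 genes (4.67%) had an unadjusted p under 0.05, 448 of them higher (2.53%) and 378 lower (2.13%). With the number in the sample titles as a block, which sets anti-IL-1R1 1 against untreated 1 and so on, the same test called 27 genes (0.152%), of which 23 were lower (0.13%) and 4 higher (0.0226%). Libraries of the same number deviated together only weakly, with correlations of 0.161 to 0.233. The labels do not say what a number stands for, so the block was adopted from these same counts. With the block, the fit of all 12 libraries called 0 genes. The p of the blocked fit of the 6 libraries is given below with this limit. The 27 genes had edgeR adjusted p of 0.272 to 0.913 without the block, so none of them is called by that test without it. DESeq2 without a block called 23 genes (0.13%), 19 of them lower (0.107%) and 4 higher (0.0226%). Of the 27 genes called with the block, 13 were also called by DESeq2, and the others had DESeq2 adjusted p of 0.0644 to 0.964: Bst2, Zbp1, Gm4951, Batf2, Samhd1, Cd74, Gzmd, Irgm2, Gm12250, Gzmf, Hp, Igtp, Cfd and Tap1. Without the filter on low counts, edgeR called 29 of 29098 genes (0.0997%), 25 lower (0.0859%) and 4 higher (0.0137%). Of the 45 genes called in at least 1 of these 3 fits, 13 were called in all 3, namely Irf7, Ptgis, Oas3, Cxcl10, Isg15, Oasl2, Itgb2, Ifi206, Ifit3, Ciita and C3 on the lower side and Csrp3 and Rpl21 on the higher side. All 3 fits use the same counts, so the overlap of their calls is no separate support. The words rose and fell are used below for genes called with the block, and every other difference is given by its values.

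**Figure D1:**
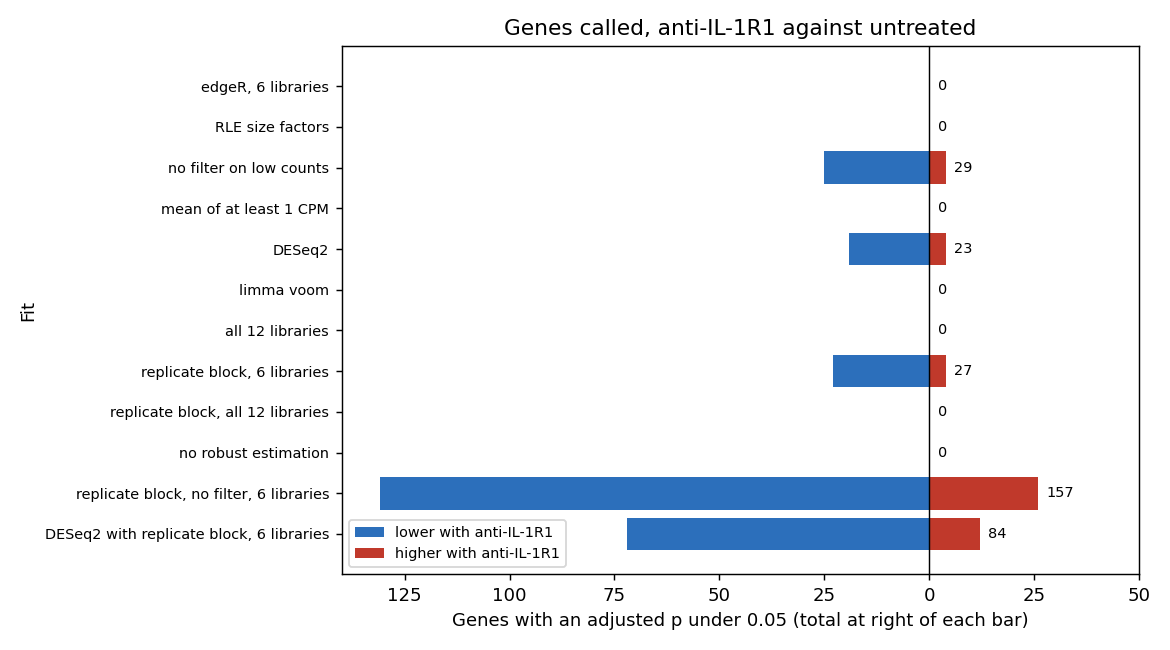
Number of genes with an adjusted p under 0.05 (horizontal axis; lower with anti-IL-1R1 to the left of 0, higher to the right) under each fit (vertical axis). The fit of the 6 libraries without a block called 0 genes, the blocked fit 27, and lower calls outnumbered higher ones in every fit that called any.

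All 27 genes called with the block differed in the same direction in each of the 3 numbered pairs, a feature that the block itself favours. Of these, 16 of the 23 lower genes and 2 of the 4 higher genes showed complete separation of the libraries. The genes were picked by p on these same libraries, which favours separation, so this is no separate support. Over all tested genes, 817 (4.61%) were without overlap on the lower side and 966 (5.46%) on the higher side. Of the 23 lower genes, 12 belonged to the lists of type I interferon-stimulated or interferon gamma-induced genes described next. These lists hold 34 and 30 of the 17706 tested genes.

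**Figure D2:**
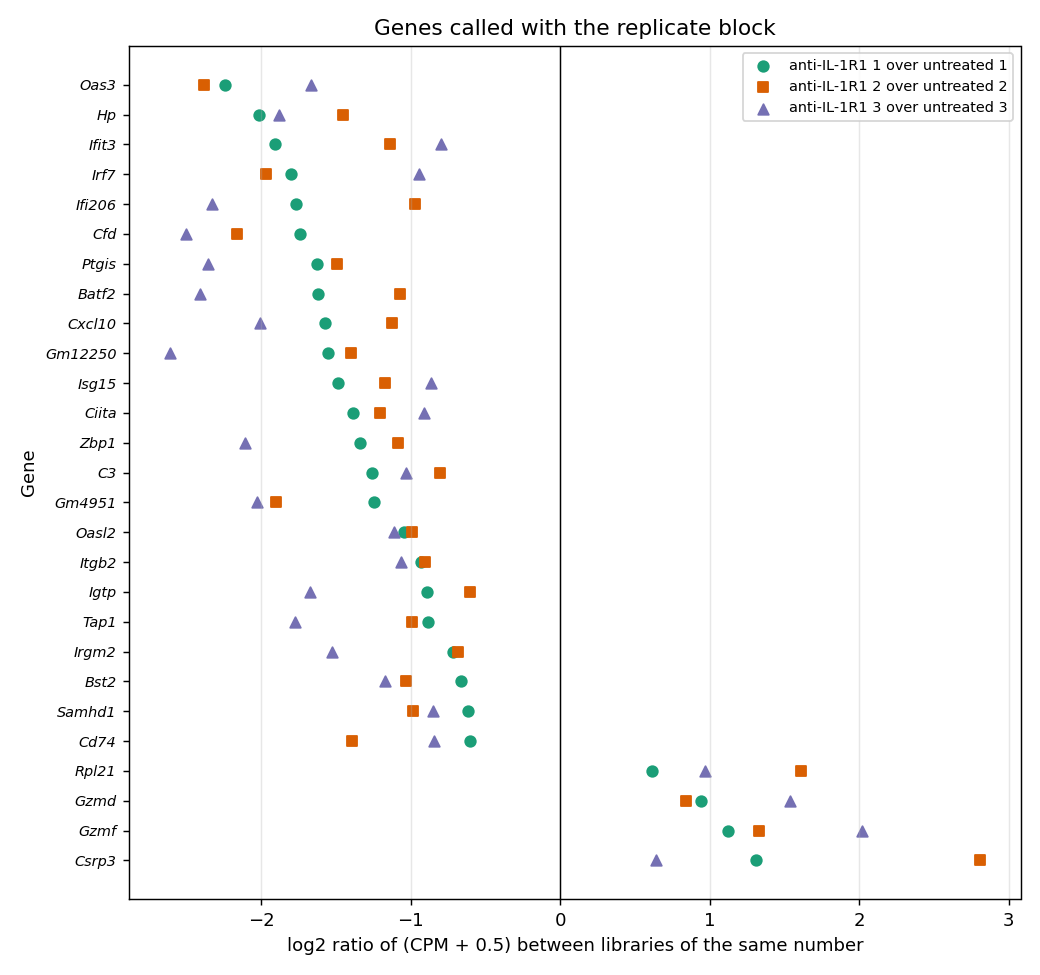
Log2 ratio of (CPM + 0.5) between the anti-IL-1R1 and the untreated library of the same number (horizontal axis) for the 27 genes called with the replicate block (vertical axis), with 1 symbol per pair. All 3 ratios lie below 0 for 23 genes and above 0 for Rpl21, Gzmd, Gzmf and Csrp3.

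Type I interferon-stimulated genes were lower with anti-IL-1R1 in nearly the whole list. Of 35 listed genes 34 were tested, and 33 of them had a negative log2 fold change, against 48.8% of all tested genes. The median log2 fold change was -0.81, against 0.01 over all tested genes. In 21 of the 34 genes every anti-IL-1R1 library lay below every untreated library (4.61% of all genes), and 22 had an unadjusted p under 0.05 on the lower side. The list level, a mean of log2 (CPM + 0.5), was 3.04, 2.98 and 3.01 with anti-IL-1R1, against 3.99, 3.76 and 3.58 in untreated tumours, so the groups did not overlap. In bulk tissue, fewer cells of a kind and less RNA per cell cannot be told apart. Leaving out any 1 library moved the median only between -0.91 and -0.70, and it was -0.83 without anti-IL-1R1 2.

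Irf7 (ENSMUSG00000025498, chromosome 7, 140842619 to 140846394, mm39), the transcription factor that amplifies interferon production, had 9.00, 7.93 and 14.03 CPM in anti-IL-1R1 1, 2 and 3, against 32.5, 32.4 and 27.5 CPM in untreated 1, 2 and 3. All anti-IL-1R1 libraries lay below all untreated ones, and anti-IL-1R1 3 was the highest of its group. Its log2 fold change was -1.57 (SE 0.23), with an adjusted p of 0.272 in edgeR without a block, 0.00294 in edgeR with the block and 1.99e-06 in DESeq2. Oas3 (ENSMUSG00000032661, chromosome 5, 120891163 to 120915726, mm39), which makes the oligoadenylates that activate RNase L in virus-infected cells, had 1.34, 0.384 and 0.954 CPM in anti-IL-1R1 1, 2 and 3, against 8.22, 4.11 and 4.13 CPM in untreated 1, 2 and 3. Its log2 fold change was -2.60 (SE 0.47, edgeR adjusted p 0.00294 with the block and 0.599 without), with only 51, 11 and 41 reads in the 3 anti-IL-1R1 libraries. The groups did not overlap, and untreated 1 was the highest library.

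Isg15 (ENSMUSG00000035692, chromosome 4, 156283912 to 156285253, mm39), a ubiquitin-like modifier, had 5.52, 7.12 and 6.14 CPM in anti-IL-1R1 1, 2 and 3, against 16.4, 16.7 and 11.6 CPM in untreated 1, 2 and 3. The groups were again separate, and the gene fell with a log2 fold change of -1.25 (SE 0.23, edgeR adjusted p 0.0323 with the block). Ifit3, whose product binds viral RNA complexes, fell as well, with 3.18, 7.19 and 7.45 CPM with anti-IL-1R1 and 13.3, 16.5 and 13.3 CPM in untreated tumours (edgeR adjusted p 0.0367 with the block). Bst2, the tetherin that holds budding virus at the cell surface, measured 104, 63.4 and 57.1 CPM with anti-IL-1R1 and 165, 130.2 and 129 CPM in untreated tumours, and its fall had an edgeR adjusted p of 0.0234 with the block. In both genes no anti-IL-1R1 library reached the lowest untreated library. Zbp1, a sensor of Z-form nucleic acid that can start necroptosis, stood at 13.4, 7.19 and 3.63 CPM with anti-IL-1R1 and 34.7, 15.8 and 17.3 CPM in untreated tumours (edgeR adjusted p 0.0065 with the block). Oasl2, a relative of the Oas enzymes, measured 21.4, 15.9 and 14.7 CPM with anti-IL-1R1 and 44.6, 32.1 and 32.4 CPM in untreated tumours, with an edgeR adjusted p of 0.0112 with the block.

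Outside the list, Ifi206 of the Ifi200 family of nucleic acid sensors fell too, at low levels of 0.4998, 0.140 and 0.279 CPM with anti-IL-1R1 and 2.90, 0.754 and 3.41 CPM in untreated tumours (edgeR adjusted p 0.0303 with the block). Samhd1, a nucleotide hydrolase that restricts viruses, measured 83.2, 41.0 and 52.5 CPM with anti-IL-1R1 and 128, 81.7 and 95.1 CPM in untreated tumours and fell with an adjusted p of 0.0481 in edgeR with the block, although anti-IL-1R1 1 lay within the untreated range. Usp18, the protease that removes ISG15 and dampens interferon signalling, measured 2.92, 3.04 and 2.56 CPM with anti-IL-1R1 and 6.72, 8.94 and 6.83 CPM in untreated tumours without overlap, but missed the threshold with the block (edgeR adjusted p 0.0609) and passed in DESeq2 (8.39e-04). Ifi44 and Phf11d behaved alike in the tests, with edgeR adjusted p of 0.0757 and 0.157 with the block and 0.00843 and 0.0258 in DESeq2. A few members barely differed: Ifit2 had a log2 fold change of -0.09 (SE 0.23) and Eif2ak2, the only member on the higher side, 0.19 (SE 0.19). Oas, Ifit and Ifi200 genes have near-identical relatives, and the counting of shared reads is not known, so their single values are uncertain.

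The 250 bases before the transcript start of 5 genes that fell are shown because they carry matches to the core of the interferon-stimulated response element, written as GAAA, any 2 bases, GAAA and searched on both strands, printed in capitals. They come from RefSeq on GRCm38.p6, a build other than the mm39 of the deposited tables, run 5′ to 3′ on the gene's strand, and end at the base before the start.
Isg15 (chr4:156200819-156201068, minus strand): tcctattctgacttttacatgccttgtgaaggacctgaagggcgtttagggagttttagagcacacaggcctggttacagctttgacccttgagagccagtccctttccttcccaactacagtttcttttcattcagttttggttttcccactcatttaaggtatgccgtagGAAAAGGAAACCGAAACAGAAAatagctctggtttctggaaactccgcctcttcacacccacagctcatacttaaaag
Ifit3 (chr19:34583279-34583528, plus strand): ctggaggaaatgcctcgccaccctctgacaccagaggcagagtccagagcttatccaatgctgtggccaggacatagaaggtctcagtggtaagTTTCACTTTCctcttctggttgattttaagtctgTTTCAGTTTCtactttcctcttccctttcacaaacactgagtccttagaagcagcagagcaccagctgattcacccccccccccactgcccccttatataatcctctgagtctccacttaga
Oas3 (chr5:120777660-120777909, minus strand): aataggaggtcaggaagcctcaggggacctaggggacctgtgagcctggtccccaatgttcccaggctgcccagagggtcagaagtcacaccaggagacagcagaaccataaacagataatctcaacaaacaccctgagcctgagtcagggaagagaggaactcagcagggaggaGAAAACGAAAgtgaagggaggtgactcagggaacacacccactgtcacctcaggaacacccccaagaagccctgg
Bst2 (chr8:71537473-71537722, minus strand): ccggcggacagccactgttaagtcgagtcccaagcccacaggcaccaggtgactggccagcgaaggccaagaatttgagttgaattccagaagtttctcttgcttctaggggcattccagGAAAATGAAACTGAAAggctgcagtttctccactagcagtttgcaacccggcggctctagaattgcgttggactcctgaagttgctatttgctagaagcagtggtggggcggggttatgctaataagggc
Cxcl10 (chr5:92348890-92349139, minus strand): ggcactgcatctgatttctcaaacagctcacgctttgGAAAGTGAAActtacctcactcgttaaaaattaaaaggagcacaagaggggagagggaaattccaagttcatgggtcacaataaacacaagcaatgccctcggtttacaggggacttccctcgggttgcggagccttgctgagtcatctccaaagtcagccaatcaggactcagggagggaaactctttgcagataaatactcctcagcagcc
Isg15 held 3 overlapping matches, beginning 78, 72 and 66 bases before the start. Ifit3 held 2 separate ones at 156 and 122 bases, both read on the opposite strand, and Bst2 2 overlapping ones at 130 and 124 bases. Oas3 held a single match at 75 bases and Cxcl10 at 213 bases, and Cxcl10 also held a kB site (GGGA, any 2 bases, TTCC) that begins 159 bases before the start. The Bst2 window holds a match to the core of the gamma-activated site (TTC, any 3 bases, GAA) at 136 bases, which overlaps the first of its response element matches. In windows from 250 bases before to 50 after the start, the response element core was present in 943 of the 27025 promoters of the table, or 3.49%, the gamma-activated site core in 2288 (8.47%) and the kB site in 387 (1.43%). The 250 bases before Irf7, Oasl2, Tap1 and C3 held no match to any of the 3 motifs. The table held a window for 11801 of the 17706 tested genes (66.7%) and for 65.2% of the genes that fell. Of the 15 genes that fell and had a window, 9 held the response element core (60%), against 369 of the 11801 tested genes (3.13%). The genes that fell were picked from these same counts, and this difference in share was not tested.

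**Figure D3:**
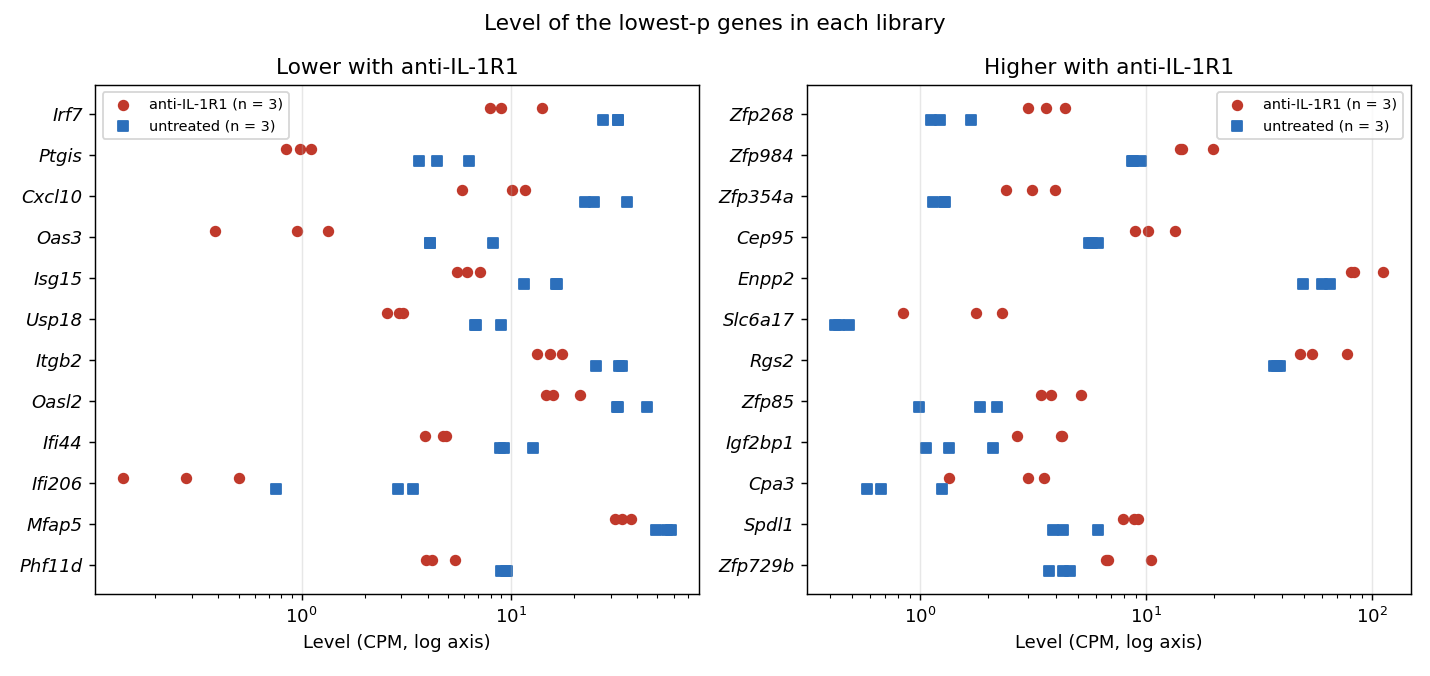
CPM (horizontal log axis) of the 12 lower and the 12 higher genes with the lowest p among those with at least 1 CPM on average and no overlap between groups (vertical axis), with 1 point per library. Irf7 lies between 7.93 and 14.03 CPM in the anti-IL-1R1 libraries, below all untreated libraries, which lie between 27.5 and 32.5 CPM.

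Genes induced by interferon gamma were lower in 29 of 30 tested members, with a median log2 fold change of -0.90. In 9 of the 30 every anti-IL-1R1 library lay below every untreated one (4.61% of all tested genes). In the blocked fit 5 genes fell (0.13% of all tested genes). Cxcl10 (ENSMUSG00000034855, chromosome 5, 92494497 to 92496748, mm39), the chemokine that attracts CXCR3-bearing T cells, had 11.7, 10.1 and 5.82 CPM in anti-IL-1R1 1, 2 and 3, against 35.8, 22.7 and 24.9 CPM in untreated 1, 2 and 3. Every anti-IL-1R1 library was lower than every untreated one, with means of 9.22 ± 3.05 CPM with anti-IL-1R1 and 27.8 ± 7.01 CPM in untreated tumours (SD, n = 3 each) and a log2 fold change of -1.60 (SE 0.28). Its adjusted p was 0.00207 in edgeR with the block, 0.599 without, and 6.55e-05 in DESeq2. Batf2, a transcription factor of activated macrophages, measured 3.81, 2.34 and 0.605 CPM with anti-IL-1R1 and 12.8, 5.48 and 5.38 CPM in untreated tumours (edgeR adjusted p 0.0303 with the block).

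Of the immunity-related GTPases, a family that acts against intracellular parasites, 2 listed members fell. Igtp had 43.2, 30.6 and 11.8 CPM with anti-IL-1R1 and 80.4, 46.9 and 38.7 CPM in untreated tumours, and Irgm2 had 56.4, 31.7 and 17.4 CPM with anti-IL-1R1 and 93.1, 51.3 and 50.9 CPM in untreated tumours. The edgeR adjusted p was 0.0367 for Igtp and 0.0367 for Irgm2 with the block, and in both anti-IL-1R1 1 lay within the untreated range. Their annotated spans overlap on chromosome 11, so reads of the pair may be shared. Ido1, which degrades tryptophan, measured 1.00, 1.57 and 0.489 CPM with anti-IL-1R1 and 6.48, 3.55 and 1.86 CPM in untreated tumours and missed the threshold (edgeR adjusted p 0.0692 with the block). Cd274, which encodes the checkpoint ligand PD-L1, measured 13.9, 11.0 and 6.12 CPM with anti-IL-1R1 and 22.3, 14.3 and 21.0 CPM in untreated tumours without overlap, at an edgeR adjusted p of 0.272 with the block. Ifng itself was near the limit of detection, with 0.316, 0 and 0.0233 CPM with anti-IL-1R1 and 0.937, 0.810 and 0.683 CPM in untreated tumours (edgeR adjusted p 0.338 with the block); a count of 0, as in anti-IL-1R1 2, allows up to 3 reads. Gm12250 and Gm4951, which no list holds, fell as well, with 3.52, 1.85 and 0.279 CPM with anti-IL-1R1 and 11.3, 5.70 and 4.26 CPM in untreated tumours for Gm12250 and 4.47, 1.54 and 0.861 CPM with anti-IL-1R1 and 11.3, 7.10 and 5.05 CPM in untreated tumours for Gm4951 (edgeR adjusted p 0.0392 and 0.00994 with the block).

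The level of the interferon gamma list was 3.88, 3.70 and 2.46 with anti-IL-1R1, against 4.84, 4.09 and 3.93 in untreated tumours. Anti-IL-1R1 3 was the lowest library and untreated 1 the highest. The median was -0.57 without anti-IL-1R1 3, -0.58 without untreated 1 and -1.38 without anti-IL-1R1 1.

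Antigen presentation genes had lower levels for both MHC classes, and few single genes separated the groups. In the class I list 21 of 22 tested members were on the lower side (median -0.62) and none was without overlap. Tap1, a subunit of the peptide transporter that loads class I molecules, was the only member that fell, with 75.7, 30.4 and 15.2 CPM in anti-IL-1R1 1, 2 and 3, against 139.9, 60.8 and 53.1 CPM in untreated 1, 2 and 3. Its groups overlap because anti-IL-1R1 1 lies above untreated 2 and 3, yet each pair of the same number has the lower level in the anti-IL-1R1 library (edgeR adjusted p 0.00975 with the block and 0.913 without). The class I list level was 6.29, 5.56 and 4.87 with anti-IL-1R1, against 6.71, 6.10 and 5.95 in untreated tumours. The median was -0.33 without anti-IL-1R1 3, -0.33 without untreated 1, and -1.01 without anti-IL-1R1 1.

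All 14 tested class II genes were on the lower side (median -0.76; -0.50 without untreated 1 and -1.06 without anti-IL-1R1 1). The class II list level was 4.82, 4.22 and 4.25 with anti-IL-1R1, against 5.30, 4.85 and 5.07 in untreated tumours, without overlap. Of the 14 genes, 2 were without overlap (4.61% of all tested genes on the lower side). Ciita, the master regulator of class II transcription, fell to 8.18, 5.24 and 5.42 CPM with anti-IL-1R1, against 22.2, 12.7 and 10.6 CPM in untreated tumours, without overlap (log2 fold change -1.27, SE 0.31, edgeR adjusted p 0.0303 with the block). Cd74, the invariant chain that guides class II molecules, measured 384, 153 and 179 CPM with anti-IL-1R1 and 585, 402 and 320.4 CPM in untreated tumours (edgeR adjusted p 0.0422 with the block). Its groups overlap, as anti-IL-1R1 1 lay above untreated 3. H2-Aa, a class II chain, had 229.5, 148 and 101 CPM with anti-IL-1R1 and 344, 226 and 188 CPM in untreated tumours and did not pass (edgeR adjusted p 0.14 with the block).

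**Figure D4:**
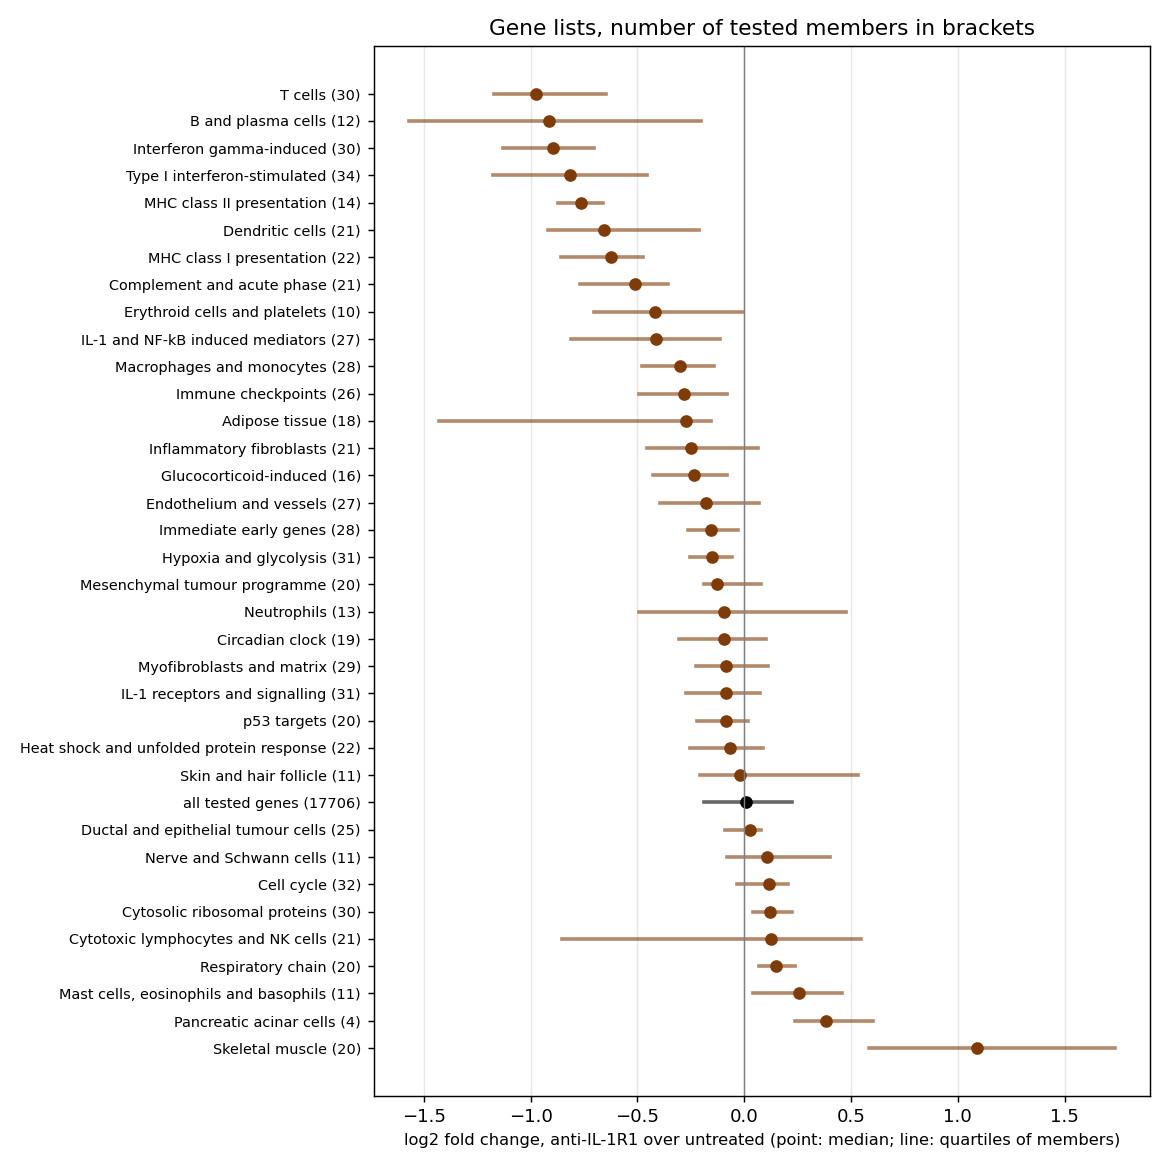
Median (point) and quartiles (line) of the log2 fold change, anti-IL-1R1 over untreated (horizontal axis), of the tested members of each gene list and of all tested genes (vertical axis, number of members in brackets). The interferon, antigen presentation, T cell and dendritic cell lists lie between -0.97 and -0.62, the median of all genes is 0.01, and the skeletal muscle list is at 1.09.

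T cell genes were lower in 27 of 30 tested members, with a median log2 fold change of -0.97 at low levels, and none was called with the block. In 10 of the 30 every anti-IL-1R1 library lay below every untreated one, against 4.61% of all tested genes. The list level overlapped, at 1.02, 1.10 and 0.51 with anti-IL-1R1 and 1.77, 1.06 and 1.46 in untreated tumours. Cd3e, a chain of the T cell receptor complex, had 0.0789, 0.524 and 0.0698 CPM in anti-IL-1R1 1, 2 and 3, against 1.20, 1.03 and 0.901 CPM in untreated 1, 2 and 3. Pdcd1, the gene of the inhibitory receptor PD-1, had 0.289, 0.419 and 0.233 CPM with anti-IL-1R1 and 3.20, 1.12 and 1.04 CPM in untreated tumours, and passed in DESeq2 (adjusted p 0.0399) but not in edgeR with the block (0.189). Cd8a, the co-receptor of cytotoxic T cells, had 2.89, 2.31 and 0.186 CPM with anti-IL-1R1 and 6.39, 2.77 and 3.31 CPM in untreated tumours, and the groups overlapped. Ctla4 and Lag3, which encode other inhibitory receptors, had log2 fold changes of -0.03 (SE 0.52) and 0.00 (SE 0.41). The median of the list was -1.01 without anti-IL-1R1 2 and -0.69 without anti-IL-1R1 3.

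Genes of cytotoxic lymphocytes and natural killer cells split, with 12 of 21 tested members higher and 9 lower (median 0.13). On the lower side 3 members were without overlap (4.61% of all tested genes), among them Ifng, given above. On the higher side 0 members were without overlap (5.46% of all tested genes). Gzmf and Gzmd, neighbours in the granzyme cluster of proteases, rose in the blocked fit, as did 0.0226% of all tested genes. Gzmf had 12.8, 25.1 and 9.05 CPM in anti-IL-1R1 1, 2 and 3, against 5.60, 9.67 and 1.86 CPM in untreated 1, 2 and 3, and its edgeR adjusted p was 0.00994 with the block and 0.913 without. Gzmd had 17.1, 30.5 and 13.7 CPM with anti-IL-1R1 and 8.67, 16.8 and 4.40 CPM in untreated tumours (edgeR adjusted p 0.0323 with the block). In both genes the groups overlap, since untreated 2 lies within the anti-IL-1R1 range, while each pair of the same number was higher in the anti-IL-1R1 library. Gzmb, the granzyme best known from killer cells, and the pore-forming perforin Prf1 had log2 fold changes of 0.33 (SE 0.33) and 0.22 (SE 0.42). The members of the granzyme cluster are close paralogs, so reads may be shared between them. The sign of the list's median changed to -0.08 without anti-IL-1R1 2, -0.10 without untreated 2 and -0.26 without untreated 3.

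Dendritic cell and other myeloid genes were mostly lower. In the dendritic cell list 18 of 21 tested members were on the lower side (median -0.66), and 11 had no overlap (4.61% of all tested genes). Only Bst2, which is also interferon-induced, fell in the blocked fit. Itgax, which encodes CD11c, had 12.5, 16.0 and 9.87 CPM with anti-IL-1R1 and 21.5, 18.6 and 20.4 CPM in untreated tumours, and Mgl2, a lectin of dermal dendritic cells and macrophages, 10.1, 8.38 and 6.24 CPM with anti-IL-1R1 and 16.1, 16.0 and 12.8 CPM in untreated tumours (edgeR adjusted p 0.358 and 0.173 with the block). Of the macrophage and monocyte list, 26 of 28 were lower (median -0.30), 4 of them without overlap (4.61% of all tested genes) and none called. Csf1r, the receptor on which macrophages depend, had 54.1, 31.1 and 52.5 CPM with anti-IL-1R1 and 79.0, 57.2 and 75.5 CPM in untreated tumours (edgeR adjusted p 0.18 with the block). Itgb2 (ENSMUSG00000000290, chromosome 10, 77366086 to 77401542, mm39), the beta-2 integrin chain shared by leukocyte adhesion receptors, fell to 17.6, 13.4 and 15.4 CPM with anti-IL-1R1, against 34.1, 25.5 and 32.8 CPM in untreated tumours (log2 fold change -0.99, SE 0.19, edgeR adjusted p 0.0303 with the block). Its partner chain Itgal and the leukocyte actin-binding gene Coro1a had log2 fold changes of -1.32 (SE 0.38) and -0.84 (SE 0.22) without overlap, and missed the threshold (edgeR adjusted p 0.0924 and 0.0692 with the block). These leukocyte genes moved beside the interferon lists, and their part in the lower interferon-stimulated transcripts was not tested.

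Neutrophil genes showed no common direction, with 7 of 13 tested members lower (median -0.10), and the median was 0.39 without untreated 3. All 12 tested B and plasma cell genes were lower (median -0.91), but this rests on untreated 3, without which the median was 0.01. Ighm, the heavy chain of IgM, shows the same library, with 1.03, 1.43 and 4.42 CPM with anti-IL-1R1 and 3.11, 2.01 and 15.1 CPM in untreated tumours.

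No transcript of the IL-1 system itself passed the test in either edgeR fit. Il1r1, which encodes the antibody's target, had 77.4, 63.4 and 79.2 CPM in anti-IL-1R1 1, 2 and 3, against 65.2, 67.3 and 68.6 CPM in untreated 1, 2 and 3. The groups overlap, and the log2 fold change was 0.13 (SE 0.15); an antibody acts on the protein, so this level checks neither the label nor the blockade. The co-receptor gene Il1rap, the decoy receptor gene Il1r2 and the antagonist gene Il1rn had log2 fold changes of -0.08 (SE 0.22), -0.19 (SE 0.39) and -0.28 (SE 0.19). The ligand gene Il1b had 13.8, 8.87 and 13.4 CPM with anti-IL-1R1 and 11.6, 11.9 and 13.2 CPM in untreated tumours. Il1a had 1.16, 0.664 and 0.605 CPM with anti-IL-1R1 and 0.318, 0.475 and 1.78 CPM in untreated tumours, and the sign of its fold change depended on the fit. Of 31 tested genes of IL-1 receptors and signalling, 22 were lower (median -0.09; -0.18 without anti-IL-1R1 1 and -0.15 without untreated 2) and 4 had no overlap on that side, as had 4.61% of all tested genes. Nfkbia, Tnfaip3 and Relb, all targets of NF-kB, were among these 4, at log2 fold changes of -0.38, -0.33 and -0.30 (edgeR adjusted p 0.624, 0.68 and 0.682 with the block).

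Mediators that IL-1 and NF-kB are known to induce were lower in 22 of 27 tested members, with a median log2 fold change of -0.41 and none called in edgeR with the filter, with or without the block. In 7 of the 27 the groups did not overlap (4.61% of all tested genes on the lower side). An unadjusted p under 0.05 on the lower side was found for 10 (2.13% of all tested genes). The list level was 3.64, 3.74 and 3.43 with anti-IL-1R1, against 4.02, 3.79 and 4.26 in untreated tumours. Csf1, the growth factor of macrophages, had 37.4, 21.1 and 33.3 CPM in anti-IL-1R1 1, 2 and 3, against 59.4, 49.8 and 51.4 CPM in untreated 1, 2 and 3. All 3 anti-IL-1R1 libraries lay below the untreated ones, at a log2 fold change of -0.81 (SE 0.21), and the edgeR adjusted p was 0.0692 with the block and 0.023 without it and without the filter on low counts. The monocyte chemokine Ccl2 measured 11.9, 9.12 and 7.91 CPM with anti-IL-1R1 and 16.3, 14.9 and 16.6 CPM in untreated tumours, and the prostaglandin synthase gene Ptgs2 13.1, 19.9 and 19.5 CPM with anti-IL-1R1 and 26.3, 27.2 and 25.7 CPM in untreated tumours. Tnf, at low levels, had 0.552, 0.559 and 0.419 CPM with anti-IL-1R1 and 2.45, 1.03 and 1.86 CPM in untreated tumours. None of the 3 passed, with edgeR adjusted p of 0.329, 0.381 and 0.357 with the block. Il6 was close to the detection limit, at 0.263, 0.279 and 0.558 CPM with anti-IL-1R1 and 0.487, 0.643 and 0.328 CPM in untreated tumours, and Csf3, which drives neutrophil production, had 1.03, 4.75 and 1.77 CPM with anti-IL-1R1 and 0.674, 1.26 and 1.69 CPM in untreated tumours with the highest value in anti-IL-1R1 2. The median of the list ranged from -0.52 to -0.28 over the alternatives.

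Complement and acute phase genes were lower in 18 of 21 tested members (median -0.51, -0.79 without anti-IL-1R1 1 and -0.33 without anti-IL-1R1 2). In the blocked fit 3 of them fell (0.13% of all tested genes). Without overlap were 2 of the 21 on the lower side (4.61% of all tested genes) and 1 on the higher side (5.46%). C3, the central complement component, had 15.8, 10.6 and 12.8 CPM in anti-IL-1R1 1, 2 and 3, against 38.5, 18.9 and 26.6 CPM in untreated 1, 2 and 3. The groups were separate, with a log2 fold change of -1.10 (SE 0.26) and adjusted p of 0.0302 in edgeR with the block and 0.0399 in DESeq2. Hp, which encodes the haemoglobin-binding haptoglobin, had 1.39, 3.70 and 10.4 CPM in anti-IL-1R1 1, 2 and 3, against 7.16, 11.0 and 39.8 CPM in untreated 1, 2 and 3. Cfd, which encodes the complement protease adipsin made by fat cells, had 0.0526, 1.22 and 5.44 CPM in anti-IL-1R1 1, 2 and 3, against 1.35, 7.21 and 33.1 CPM in untreated 1, 2 and 3. In Hp and Cfd the groups overlapped widely, since library 3 was the highest and library 1 the lowest in both groups, and the adjusted p was 8.87e-04 and 6.65e-04 in edgeR with the block, against 0.913 and 0.913 without it. Fat markers followed the same order: the level of the adipose tissue list was 2.00, 2.24 and 2.69 with anti-IL-1R1, against 2.48, 2.70 and 3.19 in untreated tumours, and 16 of its 18 tested members were on the lower side (median -0.27, and -0.54 without anti-IL-1R1 3). The part of fat tissue in the levels of Cfd and Hp was not tested.

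Ptgis (ENSMUSG00000017969, chromosome 2, 167033725 to 167082524, mm39), the prostacyclin synthase of vessels and stroma, shared the lowest adjusted p with Irf7. It had 1.10, 0.978 and 0.838 CPM in anti-IL-1R1 1, 2 and 3, against 4.46, 3.66 and 6.34 CPM in untreated 1, 2 and 3, which rests on 42, 28 and 36 reads in the anti-IL-1R1 libraries. The groups were well apart, with a log2 fold change of -2.30 (SE 0.35) and adjusted p of 0.0112 in edgeR with the block and 2.66e-06 in DESeq2. Mfap5, a microfibril protein of fibroblasts, had 37.4, 33.9 and 31.6 CPM with anti-IL-1R1 and 49.6, 55.6 and 58.5 CPM in untreated tumours and missed the threshold (edgeR adjusted p 0.18 with the block, 0.0727 in DESeq2). Of 21 tested genes of inflammatory fibroblasts, 15 were lower (median -0.25). The 2 that fell in the blocked fit (0.13% of all tested genes) were C3 and Cfd. The eosinophil chemokine gene Ccl11 had 3.29, 2.69 and 3.23 CPM with anti-IL-1R1 and 6.18, 5.28 and 7.51 CPM in untreated tumours without overlap (edgeR adjusted p 0.278 with the block). Lum, a collagen-binding proteoglycan, was on the higher side, at 239.8, 178 and 219.7 CPM with anti-IL-1R1 and 166, 162 and 134 CPM in untreated tumours (edgeR adjusted p 0.544 with the block). The list's median was -0.12 without untreated 1 and -0.15 without untreated 2.

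Myofibroblast and matrix genes had a median near 0 (-0.09, with 10 of 29 higher), which was -0.28 without anti-IL-1R1 1, 0.12 without anti-IL-1R1 2 and -0.04 without untreated 3. Postn, a matrix protein of activated fibroblasts, had 768, 979 and 797 CPM with anti-IL-1R1 and 559.5, 692 and 501 CPM in untreated tumours, and Spp1, which encodes osteopontin, had 7014, 15116 and 7673 CPM with anti-IL-1R1 and 5203, 6916 and 6369 CPM in untreated tumours. Both lay higher with anti-IL-1R1 without overlap, and neither passed (edgeR adjusted p 0.41 and 0.556 with the block). They were the 2 members of this list without overlap on the higher side (5.46% of all tested genes). On the lower side 1 member was without overlap (4.61% of all tested genes). Of 27 vessel genes 18 were lower (median -0.18; -0.12 without untreated 1 and -0.27 without anti-IL-1R1 1), and Plvap, a protein of the endothelial diaphragm, had 42.8, 24.4 and 33.0 CPM with anti-IL-1R1 and 50.7, 45.5 and 48.4 CPM in untreated tumours (edgeR adjusted p 0.371 with the block).

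On the higher side, 5 of the 12 genes named for the lowest p without overlap, a choice that leaves out ribosomal protein genes and predicted genes, encode zinc finger proteins, and none of the 12 passed edgeR with or without the block or DESeq2. Zfp268 had 3.00, 4.40 and 3.63 CPM in anti-IL-1R1 1, 2 and 3, against 1.69, 1.23 and 1.12 CPM in untreated 1, 2 and 3. Zfp984 had 14.5, 19.7 and 14.2 CPM with anti-IL-1R1 and 8.64, 9.47 and 8.77 CPM in untreated tumours, and Zfp354a had 2.39, 3.95 and 3.12 CPM with anti-IL-1R1 and 1.27, 1.29 and 1.15 CPM in untreated tumours. All untreated libraries lay below all anti-IL-1R1 libraries in the 3 genes, and anti-IL-1R1 2 was the highest in each. Their log2 fold changes were 1.44 (SE 0.34), 0.85 (SE 0.21) and 1.35 (SE 0.35), with edgeR adjusted p of 0.216, 0.193 and 0.331 with the block. The others, Zfp85 and Zfp729b, had log2 fold changes of 1.30 (SE 0.37) and 0.92 (SE 0.27).

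Enpp2, which encodes autotaxin, the enzyme that makes lysophosphatidic acid, had 83.4, 112 and 80.8 CPM in anti-IL-1R1 1, 2 and 3, against 59.9, 65.0 and 49.8 CPM in untreated 1, 2 and 3 (log2 fold change 0.66, SE 0.18, edgeR adjusted p 0.173 with the block). Rgs2, a regulator that shortens G protein signals, had 48.3, 77.9 and 54.1 CPM with anti-IL-1R1 and 36.7, 37.8 and 39.0 CPM in untreated tumours. Cpa3, the carboxypeptidase of mast cells, had 3.52, 3.00 and 1.35 CPM with anti-IL-1R1 and 0.581, 0.671 and 1.26 CPM in untreated tumours, at an edgeR adjusted p of 0.399 with the block. Other mast cell protease genes overlapped between groups, with Tpsb2 at 9.63, 8.45 and 4.14 CPM with anti-IL-1R1 and 4.55, 5.11 and 6.91 CPM in untreated tumours and Cma1 at 3.63, 4.05 and 2.19 CPM with anti-IL-1R1 and 1.63, 1.96 and 3.44 CPM in untreated tumours. Igf2bp1, an RNA-binding protein of fetal tissue and tumours, had 4.26, 4.23 and 2.68 CPM with anti-IL-1R1 and 1.35, 1.06 and 2.10 CPM in untreated tumours (edgeR adjusted p 0.34 with the block). Cep95, Spdl1, which works at the kinetochore, and Slc6a17, an amino acid transporter, completed the genes named on this side, with log2 fold changes of 0.90 (SE 0.24), 0.87 (SE 0.26) and 1.87 (SE 0.51).

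Rpl21, a protein of the large ribosomal subunit, rose in the blocked fit, with 330.3, 626 and 296 CPM in anti-IL-1R1 1, 2 and 3, against 215, 204 and 151 CPM in untreated 1, 2 and 3 (edgeR adjusted p 0.0303 with the block, 0.0318 in DESeq2). Anti-IL-1R1 2 was far above the rest of its group, and ribosomal protein genes have many pseudogene copies, so the value is uncertain. Of 30 listed ribosomal protein genes 25 were higher, with a small median of 0.12 that became -0.01 without anti-IL-1R1 2.

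Csrp3, which encodes the muscle LIM protein, rose to 0.973, 3.98 and 0.279 CPM with anti-IL-1R1, against 0.0937, 0.140 and 0 CPM in untreated tumours (edgeR adjusted p 0.0303 with the block, 0.00661 in DESeq2). It belongs to the skeletal muscle list, whose members mark tissue that neighbours a tumour under the skin. Of its 20 tested members 18 were higher (median 1.09). Csrp3 alone had no overlap, a share near the 5.46% of all tested genes on the higher side. The list level was 0.53 to 2.40 with anti-IL-1R1, against 0.46 to 1.37 in untreated tumours, with anti-IL-1R1 2 highest and anti-IL-1R1 3 within the untreated range. Acta1, the skeletal muscle actin, had 8.73, 20.2 and 1.63 CPM with anti-IL-1R1 and 7.90, 1.48 and 0.328 CPM in untreated tumours. Without anti-IL-1R1 2 the list's median was 0.36, and without untreated 1 it was 1.85. The part of neighbouring muscle in these differences was not tested.

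**Figure D5:**
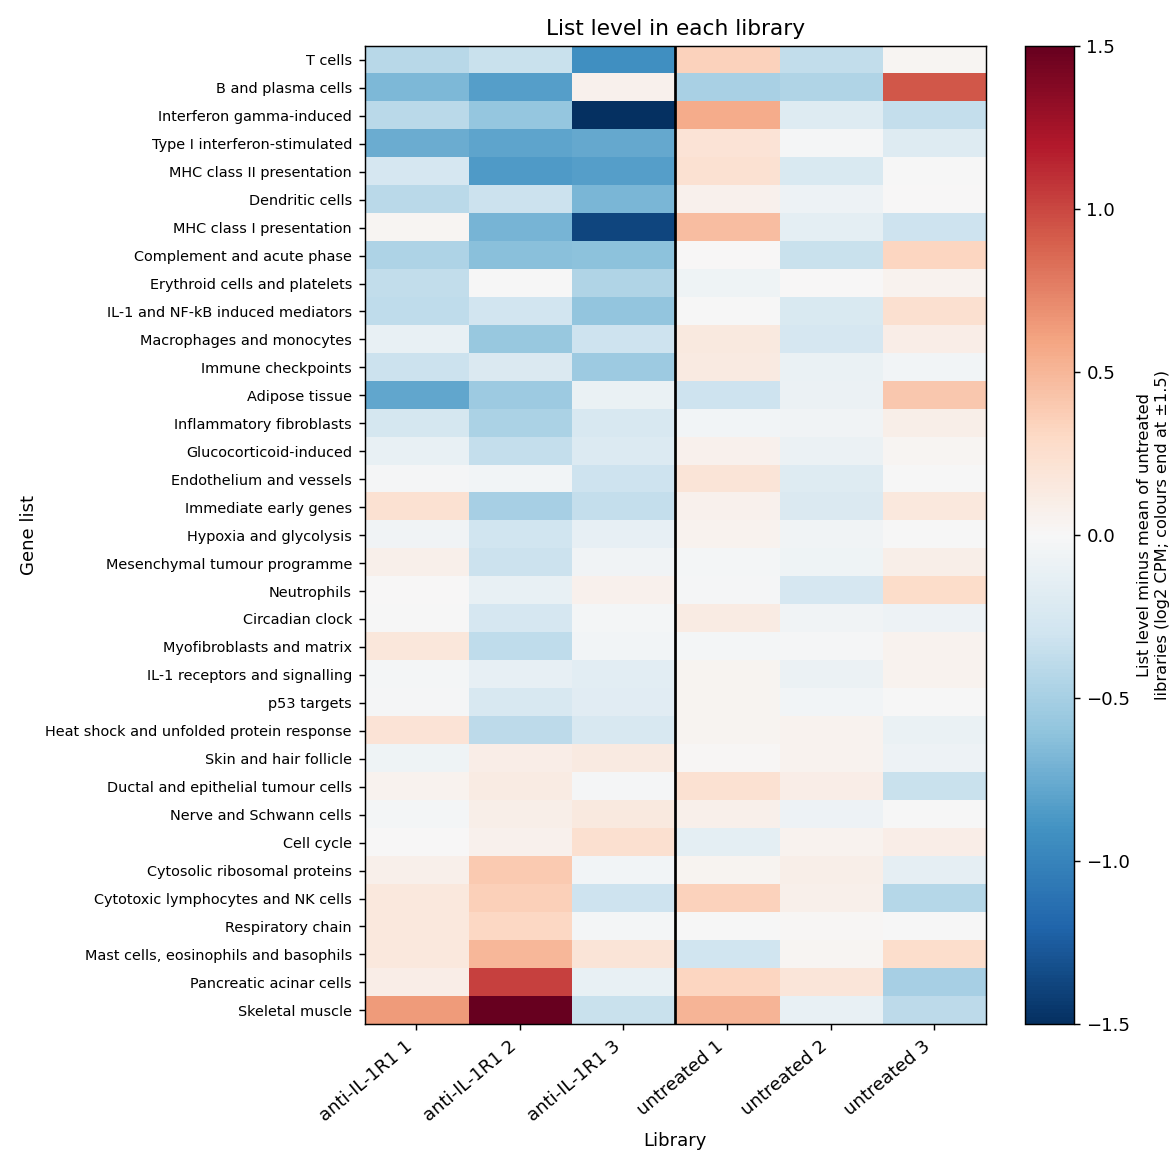
Level of each gene list (vertical axis) in each library (horizontal axis; anti-IL-1R1 left, untreated right of the line), as the mean log2 (CPM + 0.5) of its tested members minus the mean of the untreated libraries. The type I interferon list is lower in all 3 anti-IL-1R1 libraries (2.98 to 3.04, against 3.58 to 3.99 in untreated tumours), while the interferon gamma and MHC class I lists are lowest in anti-IL-1R1 3 and the skeletal muscle list is highest in anti-IL-1R1 2.

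Lists of tumour cell and general cell programmes had medians between -0.15 and 0.15. The epithelial list had a median of 0.03, with 15 of 25 higher and none without overlap, and Epcam, an adhesion molecule, varied widely at 11.0, 17.3 and 6.96 CPM with anti-IL-1R1 and 12.8, 4.11 and 2.54 CPM in untreated tumours. The mesenchymal tumour list had a median of -0.13, the p53 target list -0.09, the heat shock and unfolded protein list -0.07, the circadian clock list -0.09 and the immediate early gene list -0.15. With 1 library left out, the mesenchymal median lay between -0.17 and 0.007 (highest without anti-IL-1R1 2), the p53 target median between -0.16 (without anti-IL-1R1 1) and -0.09, and the heat shock median between -0.26 (without anti-IL-1R1 1) and 0.05 (without anti-IL-1R1 2). The clock median lay between -0.17 (without untreated 3) and -0.01 (without anti-IL-1R1 3), the immediate early median between -0.38 (without anti-IL-1R1 1) and -0.02 (without anti-IL-1R1 2), and the epithelial median between -0.10 (without untreated 3) and 0.12 (without untreated 1). Cell cycle genes were higher in 23 of 32 (median 0.12), with Top2a, the topoisomerase of dividing cells, at 101, 138 and 152 CPM with anti-IL-1R1 and 81.0, 111 and 96.5 CPM in untreated tumours (edgeR adjusted p 0.569 with the block). Respiratory chain genes were higher in 17 of 20 (median 0.15). Without anti-IL-1R1 2 these medians were 0.07 and 0.04, and the cell cycle median was 0.01 without anti-IL-1R1 3. Of 31 gene IDs of hypoxia and glycolysis, 27 were lower (median -0.15, and -0.07 without anti-IL-1R1 2), and the hypoxia marker Car9 had 102, 101 and 99.0 CPM with anti-IL-1R1 and 167, 117 and 110.5 CPM in untreated tumours (edgeR adjusted p 0.658 with the block). Per1, a clock gene that glucocorticoids also induce, had 52.1, 35.9 and 53.6 CPM with anti-IL-1R1 and 76.9, 72.2 and 70.2 CPM in untreated tumours without overlap (edgeR adjusted p 0.216 with the block). No member of these lists was called with the block.

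The authors' deposited table, made with DESeq2, calls 23 of its 29098 genes (0.079%) at an adjusted p under 0.05, 18 lower and 5 higher. Of these, 13 were also called here with the block and 22 by DESeq2 on the same counts. The 5 higher genes of the authors' deposited table are Csrp3, Rpl21, Rpl39l, Rps15-ps2 and Lhx1. Lhx1, a developmental transcription factor, had 82, 4 and 45 reads in the anti-IL-1R1 libraries, against 0 reads in each untreated library, and did not pass the filter on low counts. Rpl39l, a ribosomal protein paralog, had 2.03, 4.96 and 1.26 CPM with anti-IL-1R1 and 0.131, 0.335 and 0.710 CPM in untreated tumours without overlap, and the pseudogene Rps15-ps2 had 6.39, 7.02 and 0.861 CPM with anti-IL-1R1 and 0.618, 1.15 and 0.574 CPM in untreated tumours.

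Whether anti-IL-1R1 acted differently on the CD40 agonist background was tested in a fit of all 12 libraries, as the difference of (combination minus CD40 agonist) and (anti-IL-1R1 minus untreated), whose 2 differences share no library. No gene of 19436 passed in edgeR (0%), with a lowest adjusted p of 0.905, 849 had an unadjusted p under 0.05, and DESeq2 called 21, of which 16 had a negative and 5 a positive difference. Epcam had the lowest adjusted p in DESeq2 (1.19e-06), with a difference of -6.21 in edgeR at an adjusted p of 0.905. The 5 with a positive difference were Ifng, Gimap3, Il21r, Usp18 and Amotl2. Of these, Ifng was near the limit of detection with anti-IL-1R1 alone, as given above. The difference fitted by edgeR was 2.97 for Usp18, on the log2 scale, with an adjusted p of 1.00 in edgeR and 0.0462 in DESeq2, and 5.53 for Ifng, with 1.00 in edgeR and 0.0107 in DESeq2. A positive value means that the log2 fold change of anti-IL-1R1 was higher on top of CD40 agonist than alone. The median difference was 2.10 over the type I interferon list and 2.26 over the interferon gamma list, against -0.03 over all tested genes. These values include, with the sign turned, the lower levels with anti-IL-1R1 alone given above (medians -0.81 and -0.90). The part from combination minus CD40 agonist is not given here, nor are these medians with a library left out.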

How the data were processed

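Bulk RNA-seq was made from total RNA of tumours homogenised in liquid nitrogen, per the labels' protocols. The authors deposited raw read counts per gene and library beside their own log2 fold changes, p-values and adjusted p-values; the submitters' processing notes name DESeq2 and mm39. Not given in the sources used here were the aligner, counter, annotation release and strand setting, so genes that overlap or have near copies are uncertain. Here the counts of 3 anti-IL-1R1 and 3 untreated libraries were tested with edgeR 4.0.16 (R 4.3.3; robust quasi-likelihood, TMM, filterByExpr, Benjamini-Hochberg, adjusted p under 0.05, residual df 4). DESeq2 1.42.0, limma 3.58.1, a replicate block, no filter, other scalings, all 12 libraries and leaving out each library were alternatives. No 2 libraries agreed within sampling noise. Another 42 value columns were not used.

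The replicate numbers come from the sample titles. Correlations of deviations from the group means were 0.225, 0.233 and 0.161 between libraries of the same number and -0.315 to 0.0896 otherwise. Deviations within a group cancel, so these correlations depend on each other and cannot establish a pairing. The numbers were used as a block only in alternative fits, on the same counts that led to its use. What the numbers stand for is not stated.

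The comparison, the 35 gene lists and the naming rule were chosen with earlier results of these data known. Named were the 12 genes per direction with the lowest p without overlap and a mean of at least 1 CPM (ribosomal protein, predicted and unnamed genes left out), up to 12 per direction called with the block, up to 4 of each list with the lowest p, the IL-1 receptor and ligand genes, and up to 6 per direction from the authors' deposited table. Other named genes are further calls of the blocked fit or familiar markers, chosen after their values were seen. Promoters are RefSeq, GRCm38.p6. The fit of 12 libraries used genes listed in all 3 tables (25619 of 31106). Results for some genes are not reported here.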

Additional observations from a re-analysis of the deposited data

How the results depend on the processing

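The number of genes called between anti-IL-1R1 and untreated tumours (0) was 29 without the filter on low counts, 23 with DESeq2, 27 with the replicate block, 157 with the block and no filter and 84 with DESeq2 and the block; both combinations with the block were added after seeing the data. It stayed 0 with other size factors, limma voom, a minimum of 1 CPM, all 12 libraries with or without the block, and each library left out. The block left 2 residual degrees of freedom and changed no other call named in the text than those given there. The difference in effect between antibody backgrounds was called for 21 genes with DESeq2. The Il1a fold change turned positive with limma voom (0.37), the block (0.25), the block over 12 libraries (0.13), the block without filter (0.23) and DESeq2 with the block (0.25), and ranged from -0.47 to 1.03 with a library left out. Over the same leave-outs Il1rap ranged from -0.20 to 0.029, Il1r2 from -0.61 to 0.10 and Il1b from -0.13 to 0.15. The cause was not tested. Of 35 list medians, 24 kept their sign in all 17 alternatives and 11 did not.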

Other observations

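Immune checkpoint genes, which overlap the T cell and interferon gamma lists, were lower with anti-IL-1R1 in 23 of 26 tested members (median log2 fold change -0.28). On the lower side 7 of 26 were without overlap (4.61% of all tested genes), and none was called with the block. Genes induced by glucocorticoids were lower in 13 of 16 (median -0.23), also with none called. Mast cell, eosinophil and basophil genes were higher in 8 of 11 (median 0.26; 0.05 without untreated 1 and 0.58 without untreated 3).

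Transcripts of tissues that can border a tumour varied by library. The median was -0.42 over 10 erythroid and platelet genes (-0.74 without anti-IL-1R1 2 and -0.21 without anti-IL-1R1 3), 0.11 over 11 nerve and Schwann cell genes (-0.03 without anti-IL-1R1 1 and 0.32 without untreated 1) and -0.02 over 11 skin and hair follicle genes (-0.12 without untreated 1 and 0.27 without anti-IL-1R1 1). Of 18 genes of pancreatic acinar cells only 4 had enough reads for the test (median 0.38, and -0.17 without anti-IL-1R1 2).

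The zinc finger genes were examined as a family after their values were seen. Of 346 tested genes with a Zfp symbol, 253 were higher and 93 lower with anti-IL-1R1 (median log2 fold change 0.21), and the libraries did not overlap on the higher side for 50 of them (14.5%, against 5.46% of all tested genes). The median was 0.06 without anti-IL-1R1 2, the library that stands apart. Of 8 tested genes of the Oas family all 8 were lower (median -0.96, and -1.002 without anti-IL-1R1 2), and of 7 granzyme genes 6 were higher (median 0.83, and 0.59 without anti-IL-1R1 2).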
